A study of Mus musculus with 6 samples.

Results

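The transcripts of 4 genes of the endoplasmic reticulum (ER) stress response were followed in C2C12 myotubes given palmitate: the sensors Ern1 (IRE1), Atf6 and Eif2ak3 (PERK), and Xbp1, the transcription factor that IRE1 activates. A member was any probe set whose only gene symbol in the platform annotation was one of these 4, which gave 11 of the 22626 probe sets that were not controls of the array, or 4 of 12393 genes. Xbp1 had 4 probe sets, Ern1 and Eif2ak3 had 3 each, and Atf6 had 1. C2C12 is an established mouse myoblast line, grown with 20% fetal bovine serum and turned into contractile myotubes over 5 days in 2% horse serum. The control group (BSA, 3 arrays) received 1% bovine serum albumin for 16 h. The palmitate group (3 arrays) received 500 µM palmitate, a saturated fatty acid that the design text describes as bound to fatty acid-free albumin, for 16 h. The labels number the replicates without naming separate cultures. Each p-value therefore reflects sample-to-sample spread that could be wholly technical. A bulk signal cannot tell fewer cells of a type from less RNA per cell.

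The 3 sensors sit in the ER membrane and respond to unfolded protein in its lumen. IRE1 is a kinase and ribonuclease that cuts a short stretch out of Xbp1 mRNA, and the rejoined mRNA encodes the active factor XBP1s, which drives genes of protein translocation, folding and degradation. Activated IRE1 can also cut other mRNAs at the ER. ATF6 moves to the Golgi, where the site-1 and site-2 proteases (Mbtps1, Mbtps2) release its transcription factor part, which induces ER chaperones. PERK phosphorylates the translation factor eIF2, which slows protein synthesis while favouring translation of ATF4, the activator of amino acid and CHOP target genes. The activity of each sensor is set on the protein, and the arrays measured only mRNA. The forms of Xbp1 mRNA before and after cutting were not told apart here.

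The first sequences shown are the stretches just before the starts of 3 of the genes, because a bipartite element that ATF6 and XBP1 can bind is known from such stretches of ER chaperone genes. They come from the RefSeq promoter table (GRCm38.p6), which matched Ern1, Xbp1 and Eif2ak3, and are written 5′ to 3′ along the gene, with CCAAT (or ATTGG, its other strand) and CCACG in capitals. The Ern1 stretch is chr11:106487797-106488046 (minus strand), that of Xbp1 is chr11:5520391-5520640 (plus strand), and that of Eif2ak3 is chr6:70844265-70844483 (plus strand), 219 bases that end where the annotated gene begins.
Ern1: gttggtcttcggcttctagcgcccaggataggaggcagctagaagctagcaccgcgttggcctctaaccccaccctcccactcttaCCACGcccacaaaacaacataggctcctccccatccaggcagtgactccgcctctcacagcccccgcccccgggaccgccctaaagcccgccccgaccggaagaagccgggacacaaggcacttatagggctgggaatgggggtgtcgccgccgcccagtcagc
Xbp1: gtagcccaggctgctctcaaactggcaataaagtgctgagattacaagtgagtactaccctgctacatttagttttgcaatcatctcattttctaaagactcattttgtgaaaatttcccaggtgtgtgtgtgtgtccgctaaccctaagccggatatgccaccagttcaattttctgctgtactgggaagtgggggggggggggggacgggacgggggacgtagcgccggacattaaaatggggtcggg
Eif2ak3: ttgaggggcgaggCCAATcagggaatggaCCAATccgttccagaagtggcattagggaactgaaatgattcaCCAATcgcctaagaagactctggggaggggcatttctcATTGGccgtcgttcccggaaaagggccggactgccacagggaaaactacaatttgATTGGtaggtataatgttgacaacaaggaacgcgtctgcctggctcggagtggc
Below them, for comparison, are the full element of the chaperone gene Hspa5 (chr2:34772025-34772043, plus strand) and the shorter element of the ER degradation gene Herpud1 (chr8:94386377-94386387, plus strand), with the fixed letters in capitals.
Hspa5: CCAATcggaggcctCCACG
Herpud1: ATTGGgCCACG

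Each motif was searched on both strands in the 250 bases before the start. The ER stress element (CCAAT, any 9 bases, CCACG), its shorter form (ATTGG, any 1 base, CCACG), the XBP1 element TGACGTGG, the cyclic AMP element TGACGTCA and the ATF4 element TGATGNAAN had 0 matches in the windows of Ern1, Xbp1 and Eif2ak3. Over all 32851 promoters of the table, these motifs matched in 0.113%, 0.0304%, 0.563%, 1.55% and 3.44%. Among genes listed as ATF6 targets, 7 of the 13 with a promoter in the table held the full element (Calr, Canx, Creld2, Derl3, Dnajc3, Hsp90b1 and Hspa5). The element is known from ER chaperone genes, which this list holds, so that count is not independent of the motif. Of 22 XBP1 target genes, 2 held the full element (Dnajc3 and Pdia6), 0 the shorter form and 2 the XBP1 element (Kdelr3 and Sec24d). Of 22 ATF4 and CHOP target genes, 8 held the ATF4 element. These 2 lists name targets of the factors whose motifs were counted, so their counts may not be independent of the motifs either. The Ern1 window held CCACG once, which 28.3% of all promoters hold. That of Eif2ak3 held CCAAT 6 times, 5 of them in the stretch shown. CCAAT was searched after that sequence had been seen. It matched in 33.8% of all promoters, and 5 or more times in 0.213%. CCACG and CCAAT are parts of the ER stress element, so their counts overlap with it. These matches describe letters in a window and not binding.

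Correlations of log2 signal were 0.943 to 0.959 within a group and 0.883 to 0.910 between groups. Palmitate replicate 2 had the lowest 3′ to 5′ log2 ratio of the Gapdh control (-0.20, against 0.19 to 0.35 on the other 5 arrays), and it was also the highest array for Ern1 1421240_at and for Xbp1 1420886_a_at and 1420011_s_at. Its part in these values was not tested beyond leaving it out, which gave 0.45, 0.59 and 0.40. All 12 myotube markers were above the filter, and 0 of them passed the test (median -0.24), while 5 were lower after the scaling to hybridisation controls described below (median -0.57), where 26.4% of all genes tested fell. Their summed signal was 101973 to 173725 with BSA and 116476 to 125100 with palmitate. Of 18 markers of macrophages, adipocytes and endothelium on the array, 4 were above the filter and 0 passed, with summed signals of 1916 to 2391, 486.0 to 706.2 and 536.7 to 663.0 with BSA and of 2330 to 2731, 648.5 to 886.6 and 480.2 to 1074 with palmitate. Their part in the sensor values was not tested.

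Atf6 transcripts rose with palmitate, as did 3 of the 4 Xbp1 probe sets and the brightest of the 3 Eif2ak3 probe sets, by 1.42-fold to 1.89-fold. The 1 Ern1 probe set bright enough to be tested, by its mean over all 6 arrays, did not pass. Of the 7 probe sets bright enough to be tested, 5 rose and 0 fell. Among all 13575 tested probe sets 19.2% passed, 8.63% higher and 10.6% lower with palmitate. In the same 5, each palmitate array lay above each BSA array, which held for 17.6% of all tested probe sets, and 19.6% were separated the other way. Calls are from limma on log2 signal at a threshold of 0.05, after Benjamini-Hochberg adjustment over those 13575, which are the probe sets brighter than the 40th percentile (a signal of 267.1). Which of them passed also depended on the filter, on the intensity trend in the fit, on single arrays and on scaling to hybridisation controls. Median, 75th percentile and quantile scaling left all 5 calls in place.

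**Figure D1:**
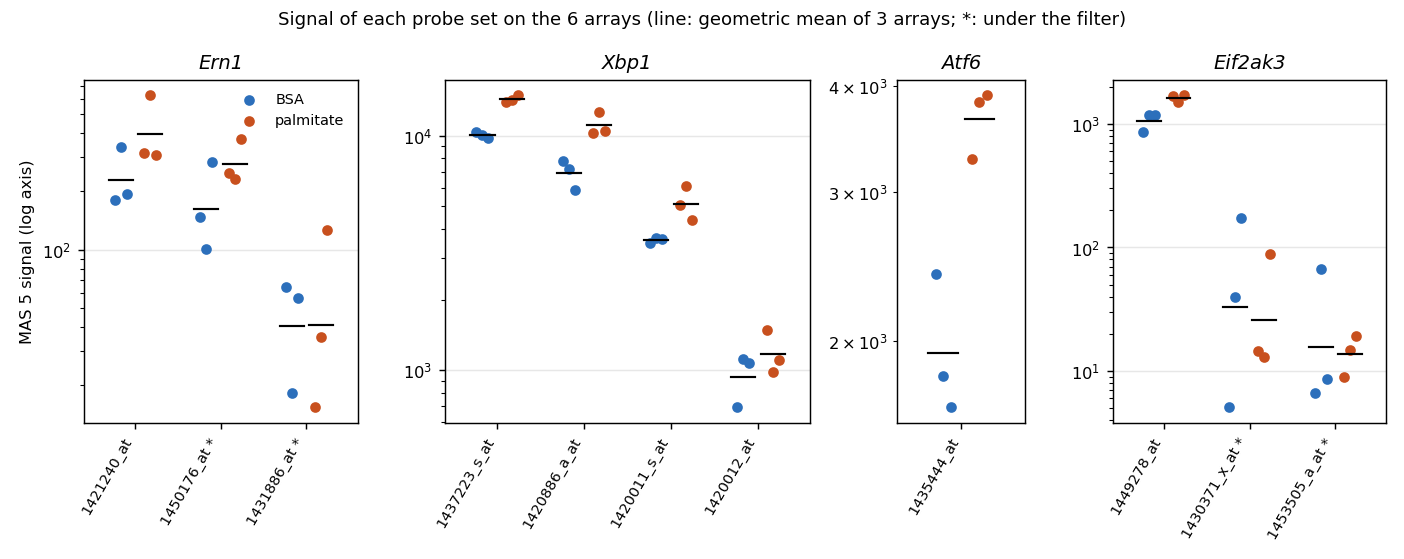
Signal of the 11 probe sets of Ern1, Xbp1, Atf6 and Eif2ak3 on each of the 6 arrays (log axis, MAS 5 signal; points are arrays, lines are geometric means of 3 arrays, asterisks mark probe sets under the filter). The palmitate arrays lie above all BSA arrays for 5 probe sets: 3 of Xbp1, that of Atf6 and the brightest of Eif2ak3.

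Ern1 encodes IRE1. Its brightest probe set (1421240_at) had signals of 181.5, 338.5 and 194.9 on BSA arrays 1 to 3 and of 316.9, 626.6 and 308.1 on palmitate arrays 1 to 3. BSA replicate 2 was higher than palmitate replicates 1 and 3, so the groups overlapped, and palmitate replicate 2 stood alone at the top. The BSA mean was 238.3, under the filter signal of 267.1, so this probe set was tested only through its palmitate signals. The log2 difference, palmitate minus BSA, was 0.78 ± 0.45 (SE, n = 3 arrays per group, limma adjusted p = 0.253), with a 95% confidence interval from -0.20 to 1.76. Leaving out palmitate replicate 2 moved it to 0.45. The interval spans no change and a rise of 3.40-fold, so a rise as large as that of Atf6 could not be told from none at this precision. The second Ern1 probe set (1450176_at) lay under the filter, with 147.0, 101.4 and 282.9 against 249.5, 232.3 and 372.2, again with overlap. Its log2 difference of 0.78 was close to that of the first, although a different palmitate array was highest. In the fit without a filter its SE was 0.59 and its 95% confidence interval ran from -0.50 to 2.07 (limma adjusted p = 0.494). Leaving out 1 array moved the difference to between 0.45 and 1.19, so the closeness of the 2 values carries little weight. The third (1431886_at) was dimmer still, from 18.3 to 64.3 with BSA and from 15.4 to 126.7 with palmitate, with a log2 difference of 0.022. Ern2, the other mouse IRE1 gene, was under the filter too, with at most 79.6 on any array.

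Xbp1 encodes the factor activated by IRE1. The probe set with the highest signal (1437223_s_at) read 10406, 10032 and 9815 on the BSA arrays and 13920, 14272 and 14877 on the palmitate arrays. The 2 groups were narrow and well apart, the lowest palmitate array being 1.34-fold above the highest BSA array. The rise was 1.42-fold (log2 difference 0.51 ± 0.12, SE, n = 3 per group, limma adjusted p = 0.0125). The second (1420886_a_at) read 7767, 7231 and 5855 against 10295, 12591 and 10451, a rise of 1.60-fold (0.68 ± 0.15, limma adjusted p = 0.00906). The third (1420011_s_at) read 3480, 3651 and 3613 against 5062, 6102 and 4385, a rise of 1.43-fold (0.52 ± 0.16, limma adjusted p = 0.0391). All palmitate arrays were above all BSA arrays for both, and palmitate replicate 2 was the highest. The fourth (1420012_at) behaved differently on that array. It read 694.1, 1114 and 1068 with BSA and 1482, 982.8 and 1105 with palmitate, so palmitate replicate 2 lay below 2 BSA arrays and the groups overlapped. Its log2 difference was 0.32 ± 0.25 (SE, n = 3 per group, limma adjusted p = 0.408), with an interval from -0.22 to 0.86 that holds the 3 other values. By Affymetrix naming, an _s_at probe set may also match transcripts of other genes and an _a_at probe set matches several transcripts of a gene.

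Xbp1 calls depended on single arrays to different degrees. The call of 1420886_a_at held on leaving out each array in turn (0.56 to 0.77). That of 1437223_s_at ended without BSA replicate 2 (0.51) or palmitate replicate 3 (0.48), with adjusted p up to 0.0531. That of 1420011_s_at held without palmitate replicate 3 (0.63) and ended without each of the other 5 (0.40 to 0.53, adjusted p up to 0.127). Without an intensity trend in the fit, the calls of 1437223_s_at (adjusted p = 0.0571, and 0.0110 to 0.467 over its 16 alternatives) and of 1420011_s_at (adjusted p = 0.0899, and 0.0284 to 0.542 over its 16) ended, and that of 1420886_a_at held.

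Atf6 encodes the sensor that is itself a transcription factor, and its rise was the largest among the called probe sets of the 4 genes. The probe set 1435444_at read 2398, 1817 and 1671 on the BSA arrays and 3279, 3831 and 3899 on the palmitate arrays. Each palmitate array lay above each BSA array, the closest pair being palmitate replicate 1 and BSA replicate 1, 1.37-fold apart. The rise was 1.89-fold (log2 difference 0.92 ± 0.18, SE, n = 3 per group, limma adjusted p = 0.00437), with a 95% confidence interval of 1.44-fold to 2.48-fold. Of all tested probe sets, 4.98% had a larger difference upward. Leaving out each array in turn gave 0.81 to 1.07, and the call held each time. Atf6 had only this probe set, so no other measurement of the gene stands beside it.

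Eif2ak3 encodes PERK. Its bright probe set (1449278_at) read 853.6, 1179 and 1169 with BSA and 1672, 1503 and 1701 with palmitate. The groups did not overlap, although BSA replicate 1 stood well below the other 2 controls. The rise was 1.54-fold (log2 difference 0.62 ± 0.20, SE, n = 3 per group, limma adjusted p = 0.0477), just inside the threshold. The call ended on leaving out any 1 of the 6 arrays, with log2 differences of 0.47 to 0.70 and adjusted p from 0.0601 to 0.130. It also ended without the filter on dim probe sets, where 4.47% of all probe sets rose (adjusted p = 0.0744, and 0.0390 to 0.404 over its 16 alternatives). The remaining Eif2ak3 probe sets were far under the filter and gave no usable value of a change: 1430371_x_at ranged from 5.1 to 174.1 with BSA and from 13.1 to 89.0 with palmitate, and 1453505_a_at from 6.7 to 67.4 and from 8.9 to 19.3.

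**Figure D2:**
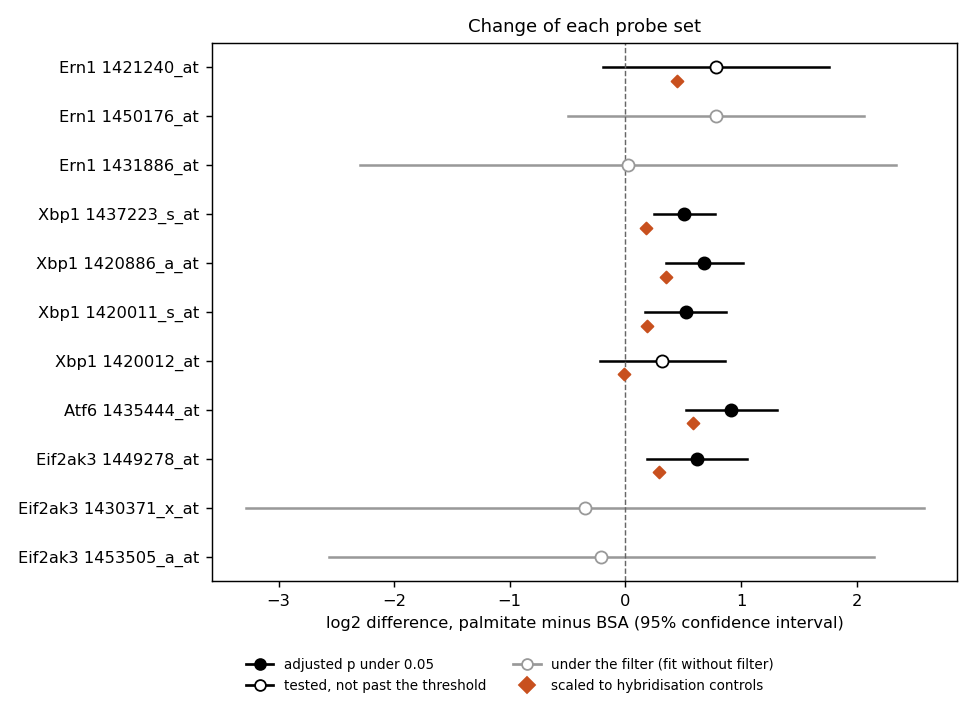
Log2 difference (palmitate minus BSA) of each probe set with its 95% confidence interval, 3 arrays per group; diamonds give the same value after scaling to the hybridisation controls. The interval lies above 0 for the 5 called probe sets, the 4 dim probe sets have intervals over 4 times as wide as that of Xbp1 1437223_s_at, and each diamond lies 0.33 to the left of its point.

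The values above use the arrays as scaled before deposit. The RNAs added to each sample as hybridisation controls (9 probe sets) read 0.33 higher with palmitate on the log2 scale, and scaling the arrays to them moved the median log2 difference of all tested probe sets from -0.0083 to -0.34. None of the 7 tested probe sets of the 4 genes was then called, where 2.98% of all tested probe sets rose. Atf6 came closest, at 0.58 (limma adjusted p = 0.0570, and 0.00154 to 0.0570 over its 16 alternatives). Xbp1 1437223_s_at, 1420886_a_at and 1420011_s_at were at 0.18, 0.35 and 0.19, Ern1 1421240_at at 0.45, Eif2ak3 1449278_at at 0.29, and Xbp1 1420012_at turned to -0.013. This scaling moves every probe set by the same amount, so distances from the median probe set stay as they were by construction: 0.93 for Atf6, 0.63 for Eif2ak3 and 0.52 for Xbp1 1437223_s_at. An older set of 9 hybridisation control probe sets read 0.26 higher with palmitate, and after scaling to it 4.02% of all tested probe sets rose, Atf6 kept its call (0.66, adjusted p = 0.0264) and the other 4 called probe sets lost theirs. Which scaling is right was not tested.

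Ratios between genes within an array do not depend on an array's scaling factor, so they show whether 2 members changed unequally. Of the 6 pairs of genes, each by its brightest probe set, 1 had groups that did not overlap. With arbitrary labels, 3 arrays separate from 3 with a chance of 0.1 for each pair. The log2 ratio of Xbp1 to Atf6 was 2.12, 2.47 and 2.55 on the BSA arrays and 2.09, 1.90 and 1.93 on the palmitate arrays. It fell by 0.41 from BSA to palmitate (exact permutation p = 0.1, two-sided, adjusted p = 0.6 over the 6 pairs), and 0.1 is the smallest p that 3 arrays against 3 can give, so no pair could pass. The ratio of Atf6 to Eif2ak3 was 0.30 higher with palmitate, with overlap (exact permutation p = 0.4), and that of Xbp1 to Eif2ak3 differed by -0.11 (exact permutation p = 0.8). The 3 ratios with Ern1 differed by -0.13 to 0.27 and overlapped widely, since the Ern1 signal varied most between arrays of a group.

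**Figure D3:**
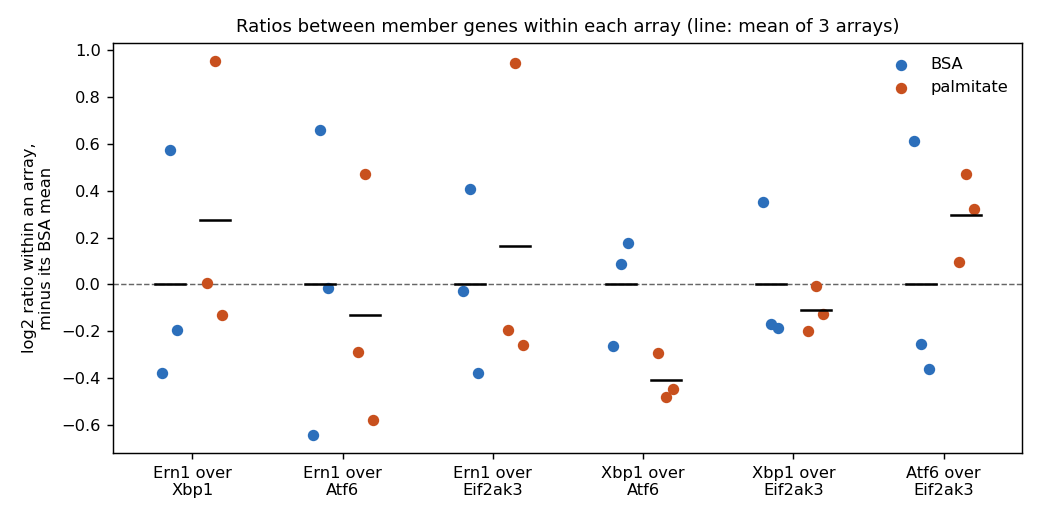
Log2 ratio between 2 member genes within each array, minus its mean on the BSA arrays (points are arrays, lines are means of 3). The groups separate for Xbp1 over Atf6, where the palmitate mean lies 0.41 lower (exact permutation p = 0.1, adjusted p = 0.6), and overlap in the other 5 pairs.

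Further genes of the 3 branches were taken from lists, each gene by its brightest probe set. Of all 7931 genes tested, 7.92% rose and 12.3% fell, with a median log2 difference of -0.051. After hybridisation control scaling 2.61% rose and 26.4% fell. Next to IRE1, the list of its signalling partners and of RNA ligation had 10 tested genes, of which 3 rose and 0 fell, with a median of 0.13 (2 higher and 2 lower after hybridisation control scaling). The 3 were the BiP cochaperone Dnajb9, the disulfide isomerase Pdia6 and the translocon subunit Sec61a1, which the XBP1 list holds as well. The adaptor Traf2 (0.28 ± 0.28, limma adjusted p = 0.532), the kinase Mapk8 (0.19 ± 0.20) and the ligase Rtcb (-0.10 ± 0.17), which rejoins Xbp1 mRNA, did not pass. Map3k5 and Ern2 were under the filter.

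Among 26 tested XBP1 target genes, 14 rose and 0 fell, and the median log2 difference was 0.49. Dnajb9 rose most, with 4143 to 6054 on the BSA arrays and 14622 to 19783 on the palmitate arrays, or by 1.73 ± 0.17 (SE, n = 3 per group, limma adjusted p = 4.77e-05). The PERK and PKR inhibitor Dnajc3 rose by 1.49 ± 0.18, the signal peptidase subunit Spcs2 by 0.87 ± 0.14 and the vesicle coat gene Sec23b by 0.86 ± 0.14. After hybridisation control scaling 6 genes of this list were higher and 2 lower. The count was 6 to 12 on leaving out 1 array and was over 1.5 times lower without BSA replicate 2, BSA replicate 3, palmitate replicate 1 or palmitate replicate 3. Of 4 tested mRNAs described as cut by IRE1, Pdgfrb, a growth factor receptor (-2.97 ± 0.19), and the collagen gene Col6a1 (-2.56 ± 0.15) fell. Ergic3 (-0.51 ± 0.19, limma adjusted p = 0.0805) and Hgsnat (-0.43 ± 0.39) did not pass, and Scara3 was under the filter at 173.7 to 281.9 with BSA and 25.4 to 109.0 with palmitate. Bloc1s1, also listed, was matched to no probe set with a single gene symbol. After hybridisation control scaling 3 of the 4 were lower. Of all genes tested 12.3% fell, and 26.4% after that scaling. Cleavage was not measured.

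Of 10 tested genes of the ATF6 family, its proteases and partners, 0 rose and 2 fell: the related factor Creb3l1, from 4847 to 5529 with BSA to 2819 to 3757 with palmitate (-0.66 ± 0.16, limma adjusted p = 0.0128), and the site-1 protease gene Mbtps1, from 4050 to 4909 to 2514 to 3493 (-0.62 ± 0.17, limma adjusted p = 0.0255). The groups of arrays did not overlap for either gene. The count of 2 fell to 0 without palmitate replicate 1, and to 1 without BSA replicate 1, 2 or 3, without palmitate replicate 3 or without an intensity trend in the fit. Atf6b, the closest relative of Atf6, was at 0.23 ± 0.35 (limma adjusted p = 0.691). All 14 tested ATF6 target genes rose (median 1.30), among them Sdf2l1 (2.58 ± 0.19), Creld2 (2.50 ± 0.14), Manf (1.94 ± 0.13) and Herpud1 (1.93 ± 0.13). The fifteenth, Derl3, a degradation channel gene, was under the filter and lay the other way, at 308.3 to 516.0 with BSA and 47.6 to 88.9 with palmitate (limma adjusted p = 0.0177 in the fit without a filter, where 5.42% of all probe sets fell). No fold is given, since its palmitate signals are not known to lie above background. After hybridisation control scaling 9 of the 14 were called and the median was 0.97.

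Around PERK, 17 tested genes of its related kinases, of eIF2, of its exchange factor eIF2B, of the phosphatases that reverse its action, and of the PERK inhibitor Dnajc3, the adaptor Nck1 and the PERK substrate Nfe2l2 had a median of 0.085, and 3 rose and 0 fell (2 higher and 3 lower after hybridisation control scaling). They were the stress-induced phosphatase subunit Ppp1r15a, from 2844 to 3926 with BSA to 7568 to 11506 with palmitate (1.49 ± 0.18, limma adjusted p = 1.95e-04), Dnajc3, and the eIF2 subunit Eif2s2 (0.44 ± 0.12). Ppp1r15a is also in the ATF4 and CHOP list, Dnajc3 in the XBP1 and ATF6 lists, and Dnajb11 in both of the latter. Counts of different lists are therefore not separate. The constitutive subunit Ppp1r15b was at 0.085 ± 0.15. The other eIF2 kinases did not pass: Eif2ak1 at 0.20 ± 0.26, Eif2ak2 at -0.49 ± 0.21 and Eif2ak4 at -0.086 ± 0.31. Of 24 ATF4 and CHOP target genes 21 rose and 0 fell (median 1.08, and 13 higher after hybridisation control scaling). They include Atf3 (2.51 ± 0.19), the oxidase gene Ero1a (1.84 ± 0.16), Ddit3, which encodes CHOP (1.56 ± 0.14), and the amino acid transporter chain Slc3a2 (1.29 ± 0.15). Atf4, which the list also holds, rose by 0.97 ± 0.13. The filter used the mean over all 6 arrays. Slc7a11 (126.9 to 213.3 with BSA, 711.8 to 786.7 with palmitate) and Stc2 (117.9 to 365.9 and 559.7 to 884.5) passed it only through their palmitate signals. Both are in the count of 21, and both kept their calls in the fit without a filter (limma adjusted p = 0.00448 and 0.0475). The count was 20 in that fit, where Sesn2 lost its call (limma adjusted p = 0.0481 with the filter and 0.0780 without). Set beside the genes of these lists, the log2 differences of the sensors and Xbp1 were 0.51 to 0.92 (Ern1 not called). They were below the medians of the ATF6 target list (1.30) and of the ATF4 and CHOP list (1.08). They were above the medians of the other branch lists, the highest of which was that of XBP1 targets (0.49). None of these differences was tested.

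**Figure D4:**
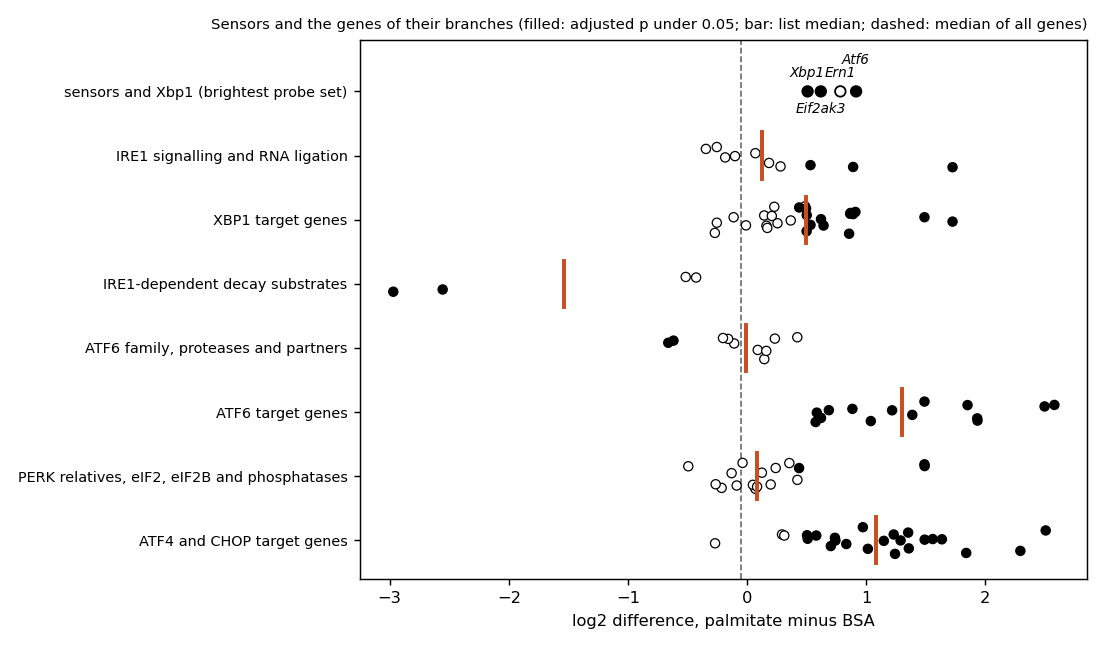
Log2 difference (palmitate minus BSA) of the brightest probe set of each member gene and of each tested gene in the 7 branch lists (filled points passed the threshold, bars are list medians, the dashed line is the median of all 7931 genes). The member genes lie between 0.51 and 0.92, while the list medians run from -1.53 for IRE1-dependent decay substrates to 1.30 for ATF6 targets.

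The genes with the most similar values over the 6 arrays were found by the root mean square difference of log2 signals, each centred on its BSA mean. For Eif2ak3 they were Pla2g4a, a phospholipase gene (0.035), Ddx10, an RNA helicase gene (0.050), and Tomm70a of mitochondrial protein import (0.052). For Xbp1 (1437223_s_at) they were Phf23 (0.045), Adnp2 (0.046) and Sec22b, a vesicle fusion gene of the ER and Golgi (0.048), and for Atf6 they were Rassf1 (0.059), Ehd1 (0.080) and Podxl (0.084). Distances were larger for Ern1, whose nearest were Nfs1 (0.14), Rbm39 (0.14) and Snhg1 (0.19). None of these 12 genes is in the branch lists. They were picked as the closest among all probe sets above the filter with a single gene symbol, so small distances follow from the choice. Shared regulation with the members was not tested.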

How the data were processed

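Each of 6 samples (3 BSA, 3 palmitate) was run on its own Affymetrix mouse 430A 2.0 array. The authors deposited linear signal intensities for every probe set, which per the submitters' processing notes came from MAS 5. Its settings, detection calls and scan times are not given in the sources used here, so batches could not be examined. The 2% trimmed mean was 1500.5 to 1500.56 on each array, so a shift of most transcripts is hidden. The number of arrays limits the precision.

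Signals were log2 transformed with no offset, and the brighter 13575 of 22626 probe sets (mean over the 6 arrays beyond the 40th percentile) were fitted with limma 3.58.1 in R 4.3.3 (eBayes with an intensity trend, two-sided, threshold 0.05). The fit was also run on simulated data, in which spread was assigned to probe sets at random, without an intensity trend. That run does not bear on the member calls. A gene was represented by its brightest probe set. Within-array ratios were tested by exact permutation (SciPy 1.17.1). Replicate numbers did not pair the arrays: same-numbered arrays deviated together at correlations of -0.23, -0.13 and 0.0091.

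The members, the 7 branch lists, the marker lists and the alternatives were chosen with earlier results of these data known. Named were all probe sets of the 4 genes, up to 4 genes per list with the smallest p, each gene of a count of 5 or fewer, and the 3 genes most alike per member. Other genes named were chosen after their values were seen.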

Additional observations from a re-analysis of the deposited data

How the results depend on the processing

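The number of probe sets past the threshold was 2609, within 1.5 times of which it stayed under every alternative except leaving out BSA replicate 2 (1579 to 2315 on leaving out 1 array). Median scaling, 75th percentile scaling, quantile normalization and an offset of 50 left all 5 member calls in place. Hybridisation control scaling ended them: Xbp1 1437223_s_at 0.18, 1420886_a_at 0.35 and 1420011_s_at 0.19, Atf6 0.58 and Eif2ak3 0.29, and Xbp1 1420012_at went to -0.013. With the older controls, an alternative chosen after seeing the data, the 3 Xbp1 values were 0.25, 0.42 and 0.26 and that of Eif2ak3 0.36. Without an intensity trend, or with the replicate number as a block, the calls of Xbp1 1437223_s_at (0.51, adjusted p = 0.0571 and 0.0655), Xbp1 1420011_s_at (0.52, adjusted p = 0.0899 and 0.0934) and Eif2ak3 (0.62, adjusted p = 0.0643 and 0.0966) ended. The same Eif2ak3 value lost its call without a filter and with a filter at the 20th percentile (adjusted p = 0.0744 and 0.0656). The replicate block left 1973 calls in all and changed no other member call, and its basis is only a shared number. On leaving out 1 array the ranges were 0.48 to 0.53 for Xbp1 1437223_s_at, 0.40 to 0.63 for Xbp1 1420011_s_at and 0.47 to 0.70 for Eif2ak3.

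Of the lists, XBP1 targets had 14 higher, and 6 after either hybridisation control scaling, 7 without a trend, 7 with the replicate block and 6 to 12 on leaving out 1 array. Their lower count went from 0 to 2 and 1 with the newer and older controls, that of IRE1 partners to 2 and 1, and that of PERK relatives to 3 and 2 (0 to 1 on leaving out 1 array). ATF6 targets had 9 higher with the newer controls and 1 lower (Derl3) without a filter or with that at the 20th percentile. ATF4 and CHOP targets had 13 higher with the newer controls. The ATF6 family had 1 lower without a trend or with the replicate block and 0 to 2 on leaving out 1 array. The cause was not tested for any of these. Without detection calls, whether the 4 probe sets under the filter, or Ern1 1421240_at on the BSA arrays, lay above background is not known.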
